A study of Homo sapiens with 9 samples.

Results

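Glypicans and syndecans are the 2 families of cell-surface proteins that carry heparan sulfate, and their 10 human genes (6 glypicans and 4 syndecans, of 25084 genes in the table) are described here in a neuroblastoma cell line. The members were taken by gene symbol alone, GPC1 to GPC6 and SDC1 to SDC4, and all 10 were present. LAN5 is an established human neuroblastoma line with amplified MYCN. It received by nucleofection (a form of electroporation) a control small interfering RNA (siCTR), the siRNA labelled siMYCN_2 against MYCN, or the siRNA labelled siHAND2_3 against HAND2, both targets being helix-loop-helix transcription factors. Total RNA was taken after 72 h in growth medium with serum, and 3 libraries per siRNA were sequenced to ask which genes the pair of factors regulates. Each target was lowered with 1 siRNA, so an effect of the target and an effect of that siRNA's own sequence cannot be told apart. The samples are bulk RNA, in which fewer cells of a type and less RNA per cell cannot be told apart either.

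Heparan sulfate is a long sulfated sugar chain that binds growth factors, morphogens and matrix proteins and presents them to their receptors. Glypicans hold their chains close to the membrane on a globular core tethered by a glycosylphosphatidylinositol (GPI) anchor, and modulate Hedgehog, Wnt, BMP and FGF signals. Syndecans span the membrane, carry chains near the outer tip of an extended ectodomain and bind scaffold and cytoskeletal proteins through a short conserved tail. In neuroblastoma GPC2 is studied as a surface target for immunotherapy, and MYCN has been reported to bind its promoter.

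MYCN and HAND2 bind DNA at E-boxes, sites of the form CANNTG. The stretches before the starts of 3 members that hold an E-box and whose levels differed between the groups below are therefore printed first. The RefSeq promoter table used here (GRCh38.p14) matched 8 of the 10 members, and GPC3 and SDC2 have no window here. The 250 bases before it were searched on both strands for CACGTG, the palindromic site preferred by MYC proteins, for CATCTG, a form bound by HAND2 dimers, and for any E-box, which includes both. Capitals mark each E-box.
GPC2 (chr7:100177382-100177631, minus strand): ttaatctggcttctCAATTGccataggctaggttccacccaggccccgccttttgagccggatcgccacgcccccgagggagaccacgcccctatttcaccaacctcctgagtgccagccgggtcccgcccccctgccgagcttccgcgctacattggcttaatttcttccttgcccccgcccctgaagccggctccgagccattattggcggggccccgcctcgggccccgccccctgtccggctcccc
SDC1 (chr2:20225476-20225725, minus strand): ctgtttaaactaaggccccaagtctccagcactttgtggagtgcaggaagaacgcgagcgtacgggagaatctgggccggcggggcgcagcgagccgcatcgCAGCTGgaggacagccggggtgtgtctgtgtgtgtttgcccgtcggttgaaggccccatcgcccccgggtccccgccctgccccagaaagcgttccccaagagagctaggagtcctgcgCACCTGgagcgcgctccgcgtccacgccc
SDC3 (chr1:30908759-30909008, minus strand): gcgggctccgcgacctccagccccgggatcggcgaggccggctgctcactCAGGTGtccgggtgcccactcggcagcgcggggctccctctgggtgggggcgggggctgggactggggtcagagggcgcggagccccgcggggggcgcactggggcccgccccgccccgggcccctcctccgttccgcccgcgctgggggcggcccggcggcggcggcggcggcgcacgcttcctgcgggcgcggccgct
Over all 35116 starts in the table, 6.34% of windows of the same length held CACGTG, 12.2% held CATCTG and 61.8% held some E-box. The first was in none of the 8 members' windows, and CATCTG was in 1, that of GPC5. GPC2, SDC3 and GPC5 each held 1 E-box, which in GPC5 was its CATCTG. The window printed for SDC1 (the upstream one of its starts in the table) held 2, and a window at its other start held 0. The windows of GPC1, GPC4, GPC6 and SDC4 also held 0. GPC6 differed between the groups below as well, so the 3 windows printed do not stand for all members that differed. A match or its absence in these letters says nothing about binding. The windows also differed in base composition: G and C made up 84.0% in GPC1, 83.6% in SDC3, 66.8% in GPC2 and 37.6% in GPC6, against a median of 58.0% over all starts.

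Depth, taken from the smallest step between low values, was 21.1 M to 32.7 M assigned reads per library, so that 1 CPM (counts scaled to a common library total) stood for 21.1 to 32.7 reads. No label says that the 3 libraries of a group came from separate cultures, so p-values measure only the spread between these libraries, which may be technical. Among replicates, siHAND2 replicate 3 stood furthest apart, with a chi-square per degree of freedom of 11.4 and 12.4 against the other siHAND2 libraries and of 3.53 to 7.81 for the remaining pairs. Values that lose their call or move without it are given both ways. MYCN averaged 1842 CPM in siCTR, 70.0% of that (1289 CPM) with siMYCN and 49.6% (914 CPM) with siHAND2, lower with the siRNA against HAND2 than with its own. HAND2 averaged 501, 571 and 272 CPM, 54.2% of siCTR with siHAND2. Of 14495 genes tested, 35.9% passed the threshold (limma, Benjamini-Hochberg adjusted p of 0.05) in siMYCN against siCTR, 29.9% in siHAND2 against siCTR and 26.9% in siHAND2 against siMYCN. Of the calls in siMYCN, 68.3% were higher on the deposited scale, 51.7% with median-ratio scaling and 49.3% with quantile normalization. Of those in siHAND2 the shares were 60.6%, 48.3% and 47.8%, and in siHAND2 against siMYCN 42.4%, 50.4% and 51.9%.

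Cell identity was checked by marker lists, of which no gene was at 0 in all libraries. All 10 sympathetic neuroblast markers were tested, and their summed level was 2375 to 2517 CPM in siCTR, 3051 to 3138 in siMYCN and 2850 to 3053 in siHAND2. In siMYCN 9 of them were called higher, while in siHAND2 4 were higher and 3 lower (median log2 fold change 0.0070): SCG2 went from 160 to 489 CPM and STMN2 from 177 to 343, but DBH from 263 to 130 and TH from 2.95 to 1.43. Of 9 fibroblast markers in the table, 2 averaged under 1 CPM (COL1A1 and POSTN), and the summed level was 335 to 357 CPM in siCTR, 380 to 397 in siMYCN and 686 to 769 in siHAND2. PDGFRA (121, 144 and 341 CPM in the 3 groups), TWIST1 (122, 118 and 121 CPM) and PDGFRB (89.8, 98.8 and 179 CPM) made up most of it. DCN and LUM also differed (0.431 and 9.15 CPM in siCTR, 11.02 and 54.7 CPM in siHAND2), while COL1A1 went from 0.720 to 0.363 CPM. Of the 7 tested, 5 were called higher in siMYCN and 6 in siHAND2, and 0 were called lower. Of 7 Schwann cell markers, 6 averaged under 1 CPM, SOX10 and S100B among them, and PMP22 measured 99.8, 150.3 and 33.1 CPM in the 3 groups. The 8 mesenchymal-state markers in the table summed to 711 to 749, 907 to 953 and 1291 to 1446 CPM, most of it VIM (525, 696 and 1011 CPM). Of the 6 tested, 2 were called higher in siMYCN (median -0.013), and 4 higher and 1 lower in siHAND2, where CD44 went from 6.79 to 4.94 CPM. Over all genes tested, 24.5% were called higher and 11.4% lower in siMYCN, and 18.1% and 11.8% in siHAND2. All these calls are on the deposited scale. The marker sums moved with the siRNA, as the levels of some members did, and their part in the members' values was not tested.

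LAN5 cells expressed a restricted set of both families. To compare genes, CPM were divided by the length of 1 transcript per gene (the canonical GENCODE transcript). In siCTR the highest level per length was that of GPC2, 44.2 ± 1.84 CPM per kb (SD, n = 3), followed by SDC2 at 40.7 ± 1.64, SDC1 at 28.5 ± 0.308 and GPC1 at 20.9 ± 0.418. GPC2 and SDC2 were closer than the choice of length allows to order: with the merged length of all exons, chosen after seeing the data, SDC2 came first at 32.9 and GPC2 followed at 29.3. A second tier held GPC6 at 4.54 ± 0.157 and SDC3 at 3.49 ± 0.115 CPM per kb. GPC3 lay below at 0.849 ± 0.128, and SDC4, GPC5 and GPC4 were at most 0.217 CPM per kb.

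**Figure D1:**
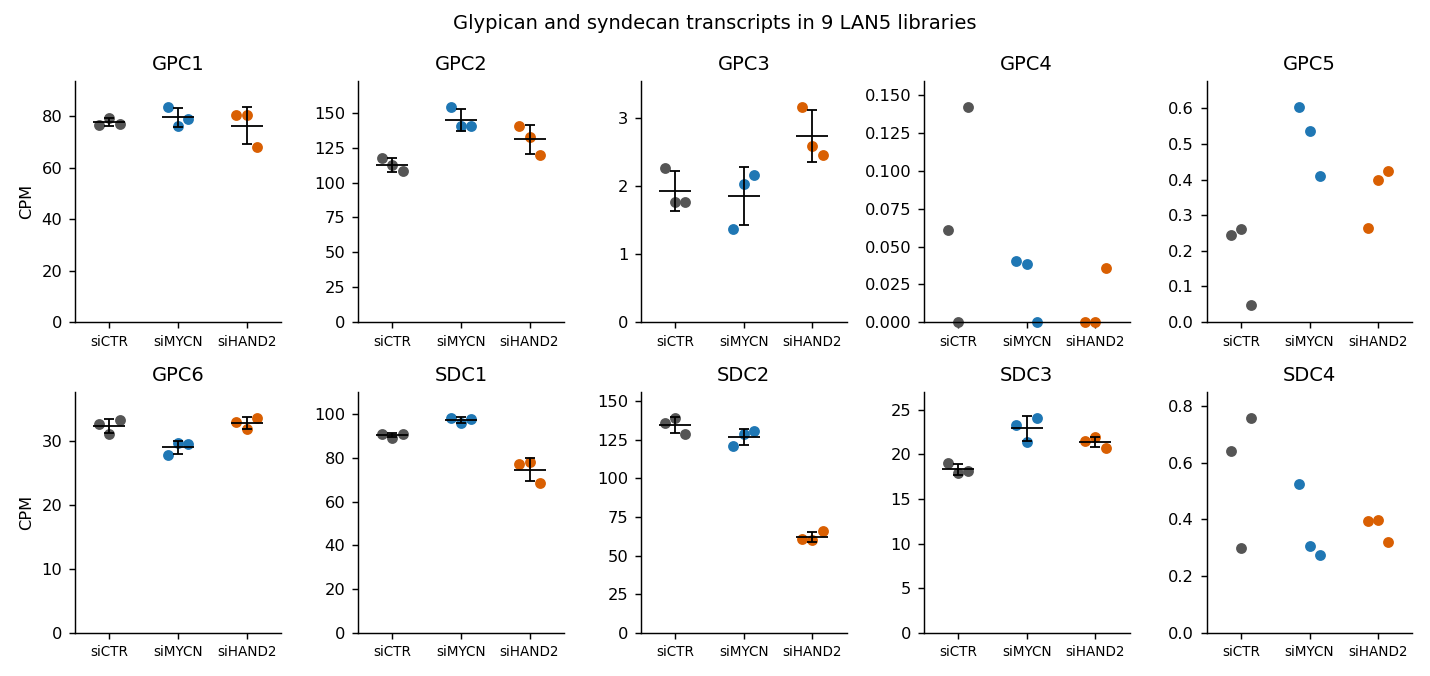
CPM of the 10 members in each library. Points are libraries, bars are the mean and SD of 3 libraries (omitted for GPC4, GPC5 and SDC4, which have few reads), and each vertical axis starts at 0 and has its own scale. SDC2 is lower in the 3 siHAND2 libraries, 60.02 to 65.5 CPM, than in the others, 121 to 139 CPM.

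Of the 10 members, 7 reached 1 CPM in 3 or more libraries, the condition for testing, and GPC4, GPC5 and SDC4 did not. In siMYCN 3 of the 7 passed the threshold, 2 higher (GPC2 and SDC3) and 1 lower (GPC6), against 35.9% of all genes tested. In siHAND2 4 of the 7 passed it, 2 higher (GPC2 and SDC3) and 2 lower (SDC1 and SDC2), against 29.9%. In siHAND2 against siMYCN it was again 4 of 7, 2 higher (GPC3 and GPC6) and 2 lower (SDC1 and SDC2), against 26.9%. The median log2 fold change of the 7 was 0.03 in siMYCN, where that of all genes was 0.06, and 0.02 in siHAND2, where that of all genes was 0.04. In siHAND2 against siMYCN it was -0.10, where that of all genes was -0.0063. The tested members did not move as a block: in each comparison some were higher, some lower and some within the error. Fold changes are on the log2(CPM + 1) scale, which understates changes of genes near 1 CPM.

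SDC2 changed most. It encodes syndecan-2, a syndecan of mesenchymal and neural cells that takes part in dendritic spine formation and in matrix assembly (chromosome 8, 96493813 to 96611790, GRCh38). The siCTR libraries (replicates 1, 2, 3) gave 136, 139, 129 CPM, the siMYCN libraries 121, 129, 131 CPM, and the siHAND2 libraries 60.4, 60.02, 65.5 CPM. The siHAND2 libraries thus lay apart from all 6 others, while siMYCN and siCTR overlapped. The siHAND2 mean was 46.1% of that in siCTR, -1.10 as log2 fold change (standard error 0.05; limma, adjusted p = 1.00e-10), the 27th lowest of the 14495 genes tested. Against siMYCN it was -1.02 (adjusted p = 1.24e-10). Over the 18 alternatives the siHAND2 value stayed between -1.14 and -1.06. In siMYCN SDC2 differed from siCTR by -0.08 (95% interval -0.19 to 0.02, adjusted p = 0.1998), but passed the threshold when rescaled by median ratios (-0.14, adjusted p = 0.0316) or quantile-normalized (-0.14, adjusted p = 0.0398).

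SDC1, which encodes syndecan-1, the main syndecan of epithelia and plasma cells (chromosome 2, 20200797 to 20225433), was the only other member called lower in siHAND2. The siCTR libraries gave 90.8, 89.2, 90.9 CPM, the siMYCN libraries 98.4, 95.9, 97.9 CPM, and the siHAND2 libraries 77.2, 78.0, 68.5 CPM. No 2 groups overlapped: siMYCN was above siCTR and siHAND2 below. The change in siHAND2 was -0.28 (standard error 0.05, limma adjusted p = 0.000500), 82.6% of siCTR on the CPM scale. The lowest siHAND2 library was replicate 3, and without it the change was -0.22 (adjusted p = 0.000654). In siMYCN the difference of 0.11 did not pass the threshold (adjusted p = 0.1005, unadjusted p = 0.0435). It did pass in a fit of those 2 groups alone (adjusted p = 0.0303) and without siHAND2 replicate 3 (adjusted p = 0.0234), but was 0.05 (adjusted p = 0.458) when rescaled by median ratios and 0.06 (adjusted p = 0.394) when quantile-normalized. Between siHAND2 and siMYCN the difference was -0.38 (adjusted p = 1.87e-05). SDC1 lies 4.25 Mb from MYCN on the same chromosome.

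SDC3, the syndecan of neurons and a receptor for the growth factor pleiotrophin (chromosome 1, 30869466 to 30908758), rose in both knockdowns. The siCTR libraries gave 19.0, 17.9, 18.1 CPM, the siMYCN libraries 23.3, 21.4, 24.1 CPM, and the siHAND2 libraries 21.4, 21.9, 20.8 CPM. All 6 knockdown libraries lay above the siCTR libraries. The change was 0.31 in siMYCN (standard error 0.06, limma adjusted p = 0.00108) and 0.21 in siHAND2 (standard error 0.06, adjusted p = 0.0168). Both comparisons share the siCTR libraries. The siHAND2 call was lost without siCTR replicate 2 (0.19, adjusted p = 0.0697), without siHAND2 replicate 2 (0.19, adjusted p = 0.0618) and after quantile normalization (0.17, adjusted p = 0.0548). The knockdowns differed from each other by -0.10 (95% interval -0.23 to 0.03, adjusted p = 0.273).

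SDC4, the widely expressed syndecan of focal adhesions (chromosome 20, 45325288 to 45348424), was near the limit of detection. It gave 21, 8, 16 reads with siCTR, 13, 8, 8 with siMYCN and 12, 10, 9 with siHAND2. The pooled levels were 0.559 CPM (95% Poisson interval 0.408 to 0.748), 0.362 (0.243 to 0.520) and 0.370 (0.252 to 0.525), where the intervals cover counting error only. The intervals overlap, and a difference was not detectable at this depth.

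Among the glypicans, GPC2 had the highest level per length in all 3 groups, with canonical and with merged exon lengths. GPC2 (chromosome 7, 100169606 to 100177381) is a glypican of the developing nervous system. The siCTR libraries gave 117, 112, 108 CPM, the siMYCN libraries 154, 140.3, 140.4 CPM, and the siHAND2 libraries 140.5, 132, 119.7 CPM. Every knockdown library exceeded every siCTR library, and the siMYCN and siHAND2 libraries overlapped. The change in siMYCN was 0.36 (standard error 0.06, limma adjusted p = 0.000141), a mean 28.8% above siCTR. The siHAND2 value was 0.21 (standard error 0.06, adjusted p = 0.00968), a mean 16.3% above siCTR, and 0.28 (adjusted p = 0.000639) without siHAND2 replicate 3, the lowest of the group. The 2 calls held under all 18 alternatives. siHAND2 minus siMYCN gave -0.15 (95% interval -0.27 to -0.03, adjusted p = 0.0681), which did not pass the threshold except with the replicate number as a block (adjusted p = 0.00798) and without siHAND2 replicate 1 (-0.20, adjusted p = 0.0174).

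GPC1, a glypican of the nervous system and a partner of FGF2 (chromosome 2, 240435663 to 240468076), did not pass the threshold in any comparison. The siCTR libraries gave 76.7, 79.5, 76.9 CPM, the siMYCN libraries 83.7, 76.3, 78.8 CPM, and the siHAND2 libraries 80.6, 80.5, 68.1 CPM. The groups overlapped, and siHAND2 replicate 3 was the lowest library. The 95% interval of the log2 fold change was -0.09 to 0.16 in siMYCN and -0.16 to 0.10 in siHAND2.

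GPC6, which with GPC4 is known as an astrocyte signal for synapse formation (chromosome 13, 93226807 to 94408020), was slightly lower in siMYCN. The siCTR libraries gave 32.6, 31.1, 33.3 CPM, the siMYCN libraries 27.9, 29.8, 29.5 CPM, and the siHAND2 libraries 33.0, 31.9, 33.7 CPM. The siMYCN libraries lay below all others, and siCTR and siHAND2 overlapped. The change in siMYCN was -0.15 (standard error 0.05, limma adjusted p = 0.0367). That call was lost with no filter on low values (adjusted p = 0.0503) and without siCTR replicate 1 (-0.14), siCTR replicate 3 (-0.13), siMYCN replicate 1 (-0.12) or siMYCN replicate 3 (-0.16). In siHAND2 the difference was 0.02 (95% interval -0.09 to 0.14). The knockdowns differed by 0.17 (adjusted p = 0.0240), a call lost without siMYCN replicate 1 (0.14, adjusted p = 0.108) or siHAND2 replicate 3 (0.16, adjusted p = 0.0526). Genes on the opposite strand overlap GPC6 and were also lowest in siMYCN. AL354811.1 averaged 1.07, 0.467 and 0.641 CPM in the 3 groups, AL160159.1 0.352, 0.151 and 0.478, and HNRNPA1P29 0.188, 0.084 and 0.329. The use of strand in counting is not given, and their part in the GPC6 values was not tested.

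GPC3, an inhibitor of Hedgehog signalling and an oncofetal antigen of liver cancer (chromosome X, 133535745 to 133985594), was low. The siCTR libraries gave 2.26, 1.76, 1.76 CPM, the siMYCN libraries 1.37, 2.03, 2.16 CPM, and the siHAND2 libraries 3.16, 2.59, 2.44 CPM, from 34 to 96 reads per library. The siHAND2 libraries lay above all others. The change of 0.35 in siHAND2 (standard error 0.13) did not pass the threshold (limma adjusted p = 0.0556), but did so in 6 of 17 alternatives, among them the replicate number as a block (adjusted p = 0.0484) and the fit without siHAND2 replicate 3 (0.41, adjusted p = 0.0497). At this low level the value depends on the pseudocount: it was 0.16 with 5 CPM and 0.48 with 0.1 CPM added, and 0.17 and 0.55 against siMYCN. Against siMYCN the difference of 0.39 passed it (adjusted p = 0.0365), a call lost with no filter on low values (adjusted p = 0.0756) and without siMYCN replicate 1 (0.26, adjusted p = 0.183), siHAND2 replicate 1 (0.31, adjusted p = 0.124) or siHAND2 replicate 2 (0.42, adjusted p = 0.0644). A gene on the opposite strand that overlaps GPC3, AL009174.1, measured 0.275 to 0.350 CPM, and the use of strand in counting is not given in the sources used here.

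GPC5 and GPC4 were barely detected. GPC5 (chromosome 13, 91398621 to 92873682), a glypican that promotes Hedgehog signals and lies beside GPC6, gave 8, 7, 1 reads with siCTR, 15, 14, 12 with siMYCN and 8, 10, 12 with siHAND2. All 3 siMYCN libraries were above the siCTR libraries, with pooled levels of 0.512 CPM (95% Poisson interval 0.367 to 0.695) and 0.199 CPM (0.114 to 0.323). With no filter on low values the difference was 0.36 (standard error 0.09, limma adjusted p = 0.00976), on a scale in which 1 CPM is added to values under 1. In that fit GPC5 in siHAND2 was at 0.20 against siCTR (limma adjusted p = 0.143), and SDC4 and GPC4 did not pass the threshold in any comparison. MIR17HG, a microRNA host gene on the same strand, ends 44.04 kb before GPC5 and averaged 31.7, 28.2 and 28.1 CPM in the 3 groups. GPC4 (chromosome X, 133300103 to 133415489), 120 kb from GPC3, gave at most 3 reads in any library and was listed at 0 in 4 of 9. No fold is given for it.

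**Figure D2:**
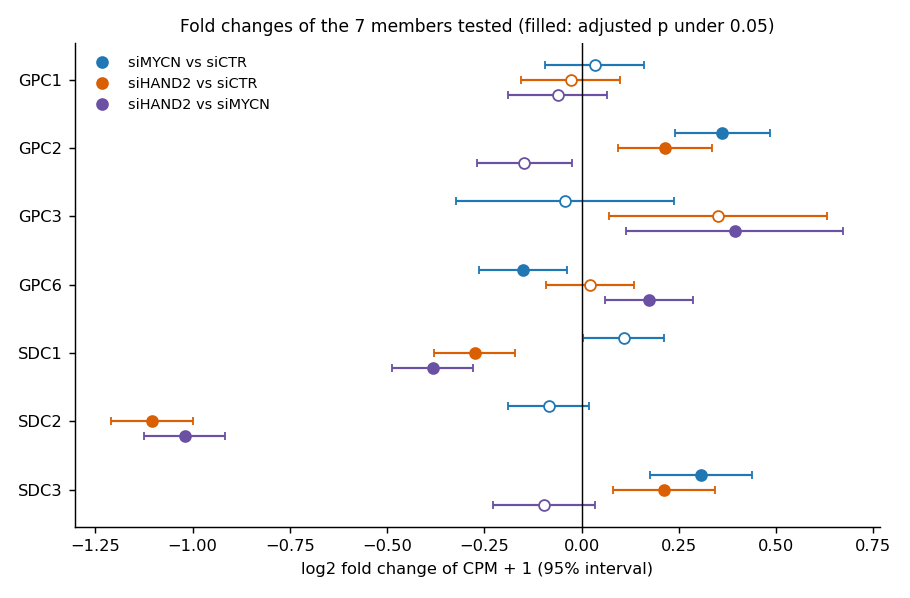
Log2 fold changes of CPM + 1 for the 7 members tested, with 95% intervals from limma. Filled points passed an adjusted p of 0.05, and the horizontal axis shows the difference named in the key, the first group minus the second. SDC2 stands at -1.10 and -1.02 in the comparisons with siHAND2, and the remaining members lie between -0.38 and 0.39.

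The families were also summed per length, as a description. Glypican transcripts totalled 70.6 ± 1.91 (SD, n = 3), 83.4 ± 3.81 and 77.9 ± 5.98 CPM per kb with siCTR, siMYCN and siHAND2. Syndecan transcripts totalled 72.9 ± 1.36, 73.6 ± 1.45 and 46.5 ± 0.851. With canonical lengths glypicans thus held 48.9% to 49.6% of the sum in siCTR, 52.0% to 54.8% in siMYCN and 61.0% to 63.9% in siHAND2. These ranges show the spread between libraries and not the dependence on length. With merged exon lengths the siMYCN means of GPC2 and GPC1 were 37.78 and 12.21 CPM per kb, against 56.93 and 21.4 with canonical lengths. Those of SDC2 and SDC1 fell less, to 31.04 and 26.96 from 38.33 and 30.78. Which family was the larger in siMYCN therefore depends on the length used. Within the syndecans the leading gene changed. SDC2 exceeded SDC1 per length by a ratio of 1.35 to 1.49 in siCTR and 1.18 to 1.28 in siMYCN, and the ratio was 0.737 to 0.915 in siHAND2. Without siHAND2 replicate 3, chosen after seeing the data, the siHAND2 ratio was 0.737 to 0.749, the glypican sum 81.2 and the syndecan sum 47.0 CPM per kb. In siHAND2 the levels of SDC1 (23.6 ± 1.66), GPC1 (20.54 ± 1.93) and SDC2 (18.7 ± 0.929 CPM per kb) came next after GPC2. Within each siHAND2 library SDC1 was above GPC1. GPC1 was above SDC2 in replicates 1 and 2 and below it in replicate 3 (18.3 and 19.8 CPM per kb). With merged exon lengths SDC2 came before GPC1.

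**Figure D3:**
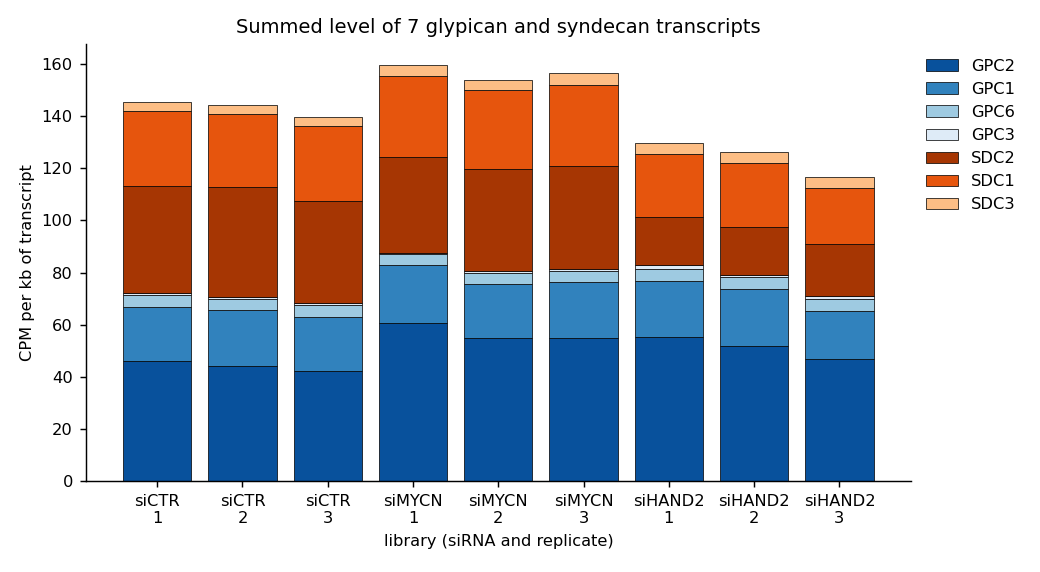
CPM per kb of transcript in each library, stacked by gene for the 7 members that passed the filter, glypicans in blue and syndecans in orange. The syndecan part is lower in the 3 siHAND2 libraries, where syndecans sum to 45.5 to 47.1 CPM per kb with SDC4 included.

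By likeness of profile (Pearson correlation of log2(CPM + 1) over the 9 libraries, over 11084 candidates averaging 5 CPM or more), the 2 genes closest to each tested member had r of 0.923 to 0.996. These libraries fall into 3 groups, so r mostly reflects the group levels. Closest to SDC2 were SFXN3 (r = 0.995) and NELL2 (r = 0.994), the latter at 628, 622 and 368 CPM in the 3 groups. Closest to GPC2 were MYO18A (r = 0.996), at 44.5, 63.8 and 55.7 CPM, and ATCAY (r = 0.989). Closest to SDC1 were FBXO31 (r = 0.979) and HSD17B10 (r = 0.978), and to SDC3 MTMR4 (r = 0.982) and PRDM11 (r = 0.982). GPC1 was closest to LRP3 (r = 0.967), GPC3 to PIP5K1A (r = 0.927) and VIRMA (r = 0.923), and GPC6 to TSPAN6 (r = 0.961) and COG5 (r = 0.954).

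The genes that build, edit and read heparan sulfate were taken from 12 lists of 150 genes, of which 109 passed the filter. In siMYCN 46 of the 109 (42.2%) passed the threshold, 34 higher and 12 lower, beside 35.9% of all genes (24.5% higher, 11.4% lower). In siHAND2 44 of the 109 (40.4%) passed it, 24 higher and 20 lower, beside 29.9% (18.1% higher, 11.8% lower). The split by direction depends on the scale: of all calls in siMYCN 68.3% were higher, and 51.7% with median-ratio scaling. The lists were counted on the deposited scale only. HGF and ROBO2 among the 24, and HS3ST3B1 and IGF2 among the 20, passed the filter only through groups in which they are high. The same holds for HS3ST4 among the 12 lower in siMYCN, with 1 siMYCN library at 1 CPM or more. The filter by group was looked at for the named genes only, so both shares are descriptions and support nothing about the lists. Values below are mean CPM in siCTR, siMYCN and siHAND2 over 3 libraries, and fold changes are given for comparisons that passed.

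**Figure D4:**
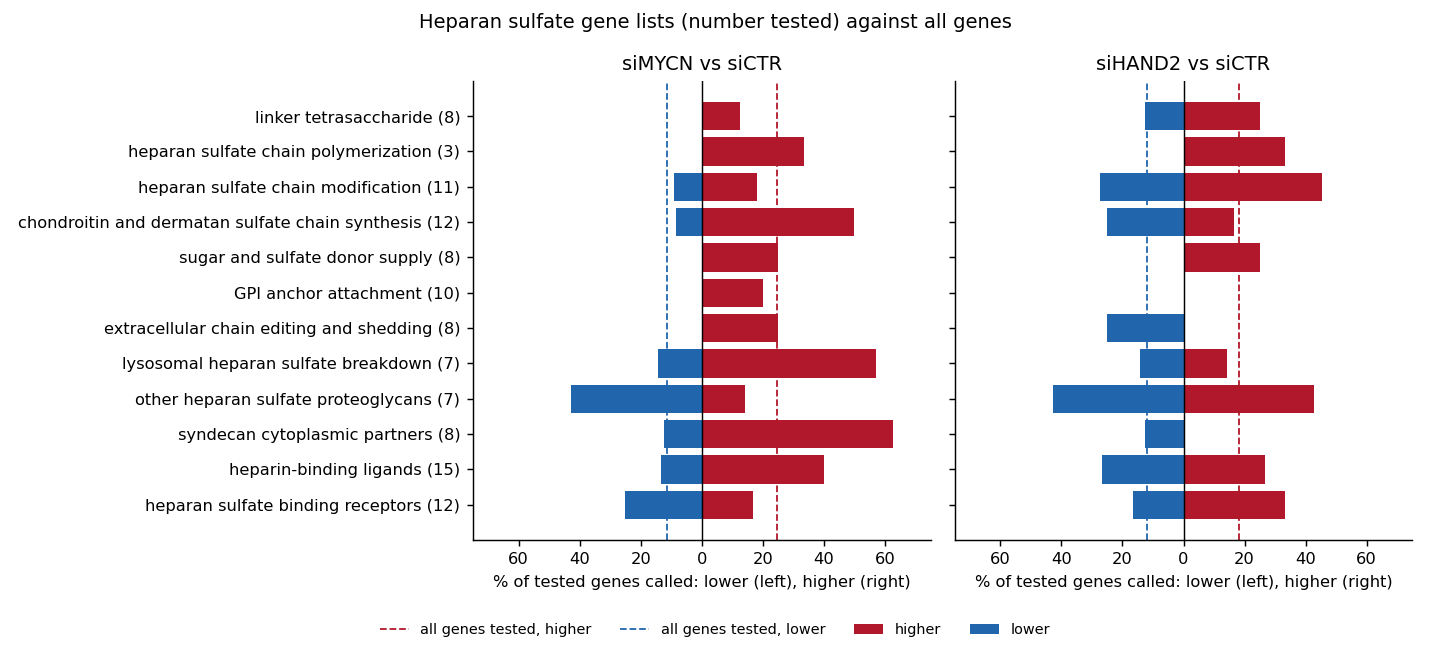
Share of the tested genes of each list that passed an adjusted p of 0.05 (limma), higher to the right and lower to the left, for siMYCN (left panel) and siHAND2 (right panel) against siCTR. Dashed lines are the shares over all 14495 genes tested, 24.5% higher and 11.4% lower in siMYCN and 18.1% and 11.8% in siHAND2, and the number tested stands beside each list.

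Chains start on a linker of 4 sugars. Of 8 linker genes, 1 rose in siMYCN, and 2 rose and 1 fell in siHAND2. XYLT1, one of the enzymes that add the first xylose to the core protein, went from 6.65 to 11.4 CPM in siMYCN and 13.2 CPM in siHAND2, log2 fold changes of 0.70 (adjusted p = 3.53e-06) and 0.89 (adjusted p = 1.92e-07). B3GAT3, which adds the closing glucuronic acid, measured 17.6, 17.7 and 15.2 CPM and fell by 0.20 in siHAND2 (adjusted p = 0.0316), a call lost in 6 of 18 alternatives, one of them without siHAND2 replicate 3 (-0.18, adjusted p = 0.0704). Of the 3 tested polymerization genes 1 rose in each knockdown: EXT2, a subunit of the polymerase, by 0.14 in siMYCN, and EXTL3, which starts the chain, by 0.15 in siHAND2. Each of these calls was lost in 7 of 18 alternatives, both scalings included.

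Of 11 tested enzymes that sulfate and epimerize the chain, 2 rose and 1 fell in siMYCN, and 5 rose and 3 fell in siHAND2. HS6ST3, a 6-O-sulfotransferase, rose from 9.41 to 15.9 CPM in siMYCN (0.70, adjusted p = 1.51e-06) and 17.97 CPM in siHAND2 (0.86, adjusted p = 1.06e-07). The 3-O-sulfotransferases, which place the rarest modification, went different ways. HS3ST3A1 measured 8.26, 7.03 and 2.79 CPM and fell by 1.28 in siHAND2 (adjusted p = 2.90e-08). HS3ST3B1 measured 1.87, 2.495 and 0.565 CPM, -0.88 in siHAND2. It passed the filter through siCTR and siMYCN alone, in which it is high, and its count among the 3 that fell supports nothing. HS3ST3A1 and HS3ST3B1 are paralogs with nearly identical sulfotransferase domains, so how reads were split between them is uncertain. Across alternatives the siHAND2 values ranged from -1.53 to -0.77 for HS3ST3A1 and from -1.60 to -0.30 for HS3ST3B1. HS3ST4 measured 2.18, 0.897 and 3.17 CPM, -0.74 in siMYCN (range over alternatives -1.20 to -0.28). It reached 1 CPM in 1 siMYCN library and in 3 libraries of each other group. HS3ST4 thus passed the filter through groups in which it is high, and its count as the 1 that fell in siMYCN supports nothing. Its rise in siHAND2 (0.39, adjusted p = 0.0483) was lost in 12 of 18 alternatives, one of them without siHAND2 replicate 3 (0.44, adjusted p = 0.0543). The siHAND2 value exceeded that of siMYCN by 1.14 (range over alternatives 0.47 to 1.74), under the same limit of the filter.

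Chondroitin and dermatan sulfate are built on the same linker. Of 12 tested genes, 6 rose and 1 fell in siMYCN, and 2 rose and 3 fell in siHAND2. CSGALNACT1, which commits a linker to chondroitin, measured 22.04, 31.7 and 8.13 CPM. It rose by 0.51 in siMYCN (adjusted p = 2.12e-05) and changed by -1.33 in siHAND2 (adjusted p = 3.07e-10), a difference between knockdowns of -1.84 (adjusted p = 5.99e-12). CHST11, a chondroitin 4-O-sulfotransferase, measured 40.1, 66.6 and 28.8 CPM, with changes of 0.72 (adjusted p = 1.37e-07) and -0.46 (adjusted p = 1.05e-05). DSE, the epimerase of dermatan sulfate, was lower in both, at 50.6, 40.4 and 35.9 CPM (-0.31, adjusted p = 0.00183, and -0.48, adjusted p = 5.17e-05).

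Of 8 genes that supply sugar and sulfate donors, 2 rose in each knockdown. UXS1, which makes UDP-xylose, rose by 0.20 in siMYCN (adjusted p = 0.00478), and PAPSS2, which makes the sulfate donor, rose by 0.47 in siHAND2 (adjusted p = 0.00208) from 2.60 to 3.97 CPM. SLC35B2, a sulfate donor transporter, rose by 0.17 in siMYCN and SLC35D1, a nucleotide sugar transporter, by 0.25 in siHAND2, calls lost in 7 of 18 alternatives each. Without siHAND2 replicate 3 the SLC35D1 value was 0.15 (adjusted p = 0.147). Of 10 GPI anchor genes 2 rose in siMYCN, GPAA1 by 0.28 (adjusted p = 0.00205) and PGAP3 by 0.38 (adjusted p = 0.0114), and 0 passed the threshold in siHAND2 (3 with an unadjusted limma p under 0.05).

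Of 8 tested genes of chain editing and shedding, 2 rose in siMYCN and 2 fell in siHAND2. TIMP3, an inhibitor of sheddases, rose from 155 to 188 CPM in siMYCN (0.28, adjusted p = 0.000255) and ADAM10, a sheddase, from 139 to 159 CPM (0.19, adjusted p = 0.00285). In siHAND2 NOTUM, a secreted Wnt deacylase, fell from 6.35 to 4.84 CPM (-0.33, adjusted p = 0.0141). HPSE, the heparanase that cuts the chains, fell from 2.78 to 1.97 CPM (-0.35, adjusted p = 0.0258). The NOTUM call was lost in 2 and the HPSE call in 5 of 18 alternatives. Without siHAND2 replicate 3 HPSE was at -0.30 (adjusted p = 0.0786). Of 7 tested lysosomal breakdown genes 4 rose and 1 fell in siMYCN, and 1 rose and 1 fell in siHAND2. HGSNAT, an acetyltransferase of that pathway, rose from 19.1 to 29.2 CPM in siMYCN (0.59, adjusted p = 5.97e-06), IDS, a sulfatase, rose by 0.25 (adjusted p = 0.00311) and ARSG, another sulfatase, fell by 0.48 (adjusted p = 0.00234). In siHAND2 HGSNAT rose by 0.23 (adjusted p = 0.0182) and IDS fell by 0.18 (adjusted p = 0.0279), calls lost in 3 and 6 of 18 alternatives.

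Of 7 other tested heparan sulfate proteoglycans, 4 passed the threshold in siMYCN (1 higher, 3 lower) and 6 in siHAND2 (3 higher, 3 lower). AGRN (agrin, an organizer of synapses) rose in both, from 36.2 to 47.9 CPM (0.40, adjusted p = 0.00139) and 45.2 CPM (0.31, adjusted p = 0.00950), the second call lost without siCTR replicate 3. SPOCK1 (testican-1) measured 55.8, 47.2 and 30.7 CPM, -0.23 in siMYCN (adjusted p = 0.0102, lost without siCTR replicate 2) and -0.84 in siHAND2 (adjusted p = 5.82e-08). HSPG2 (perlecan) fell by 0.48 in siMYCN (adjusted p = 0.00135), and COL18A1 (collagen XVIII) rose by 0.59 in siHAND2 (adjusted p = 0.00166) from 2.00 to 3.49 CPM.

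Of 8 tested partners of the syndecan tail, 5 rose and 1 fell in siMYCN, and 1 fell in siHAND2. PRKCA, the kinase recruited by syndecan-4, rose from 160 to 213 CPM (0.41, adjusted p = 3.06e-06), and NUDT16L1 (syndesmos), which binds the syndecan-4 tail, from 7.67 to 10.6 CPM (0.43, adjusted p = 0.00349). EZR (ezrin, which links syndecan-2 to actin) measured 204, 253 and 158 CPM, 0.31 in siMYCN (adjusted p = 0.000244) and -0.37 in siHAND2 (adjusted p = 4.97e-05).

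Of 15 tested heparin-binding ligands, 6 rose and 2 fell in siMYCN, and 4 rose and 4 fell in siHAND2. PTN (pleiotrophin, a ligand of syndecan-3) rose from 12.9 to 19.2 CPM in siMYCN (0.54, adjusted p = 5.95e-05) and 17.4 CPM in siHAND2 (0.41, adjusted p = 0.000880). SLIT2, an axon guidance ligand that binds glypican-1, was lower in both, at 16.4, 11.4 and 12.9 CPM (-0.49, adjusted p = 0.000163, and -0.32, adjusted p = 0.00576). HGF measured 0.539, 0.465 and 3.06 CPM. It reached 1 CPM in the 3 siHAND2 libraries and in none of the others, so it was tested only through the group in which it is high, and its count among the 4 supports nothing. IGF2 measured 2.32, 1.69 and 0.555 CPM, -1.10 in siHAND2. Being low, IGF2 depends on the pseudocount, with a range of -1.95 to -0.40 across alternatives. It passed the filter through siCTR and siMYCN alone, as HS3ST3B1 did, and its count among the 4 that fell supports nothing. Of 12 receptors, 2 rose and 3 fell in siMYCN, and 4 rose and 2 fell in siHAND2. UNC5D, a guidance receptor that glypican-3 binds, rose from 9.67 to 16.0 CPM in siMYCN (0.67, adjusted p = 2.20e-05) and 19.4 CPM in siHAND2 (0.94, adjusted p = 5.28e-07). ROBO2, a receptor for SLIT proteins, measured 0.781, 0.737 and 3.32 CPM. Like HGF, it reached 1 CPM in the siHAND2 libraries alone, and its count among the 4 receptors that rose supports nothing. PTPRF, a receptor phosphatase, fell by 0.22 in siMYCN (adjusted p = 0.00386).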

How the data were processed

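The authors deposited 1 table of CPM with a column per library, each value with an added constant of 1e-04. The constant was kept in the fit and subtracted only to work out reads and depth, and a library at the constant is given as 0. Reads were aligned with STAR 2.5.1 and Partek was used, per the submitters' processing notes, which name hg19 and GRCh37. The table's coordinates are nevertheless GRCh38 positions: 91.4% of gene starts lay within 5000 bases of those of the GRCh38 gene table and 5.62% of those of GRCh37. Ends are printed 1 base before the stop in the table. Counting rule and use of strand are not given in the sources used here. Depth was read from the smallest step between low CPM. Only 79.9% to 81.2% of low values (at most 20 steps) lay within 0.02 of a whole number of reads, so no count model was run.

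Genes with at least 1 CPM in 3 libraries (14495) were fitted as log2(CPM + 1) in 1 limma 3.58.1 model (R 4.3.3, eBayes with intensity trend) over all 9 libraries. Tests were two-sided, adjusted by Benjamini-Hochberg over all genes, with a threshold of 0.05. The fit was checked on simulated data for siMYCN against siCTR, where 82% of changes of 0.5 and 96% of changes of 1 in log2 were recovered. Smaller changes were not simulated, so the check does not cover the member calls other than those of SDC2. Named are all members and, from each list, the 2 genes with the largest called change in each comparison with siCTR at a mean of at least 1 CPM, plus 2 profile neighbours per tested member, of which 1 is not reported here. The members and lists were chosen with earlier results of these data known. Same-numbered libraries deviated together in both comparisons with siCTR (r of 0.102 to 0.266), but not in every pair of siMYCN with siHAND2 (-0.129 to 0.434). Differently numbered libraries of different groups had r of -0.437 to 0.219, among them 0.179 for siCTR replicate 2 with siHAND2 replicate 1. The 2 ranges overlap. By mean r with the other groups, 7 of 9 libraries stood closest to the libraries of their own number. No label says that the number marks a shared culture or day. The replicate number was used as a block only in an alternative.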

Additional observations from a re-analysis of the deposited data

How the results depend on the processing

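Under 18 alternatives (9 of them leaving out 1 library), counts of genes called stayed within 1.5 times. Leaving out a library gave 4017 to 5845 calls in siMYCN against siCTR, 3079 to 4341 in siHAND2 against siCTR and 2923 to 3992 in siHAND2 against siMYCN, and members called of 2 to 4, 3 to 5 and 2 to 4. The last fell to 2 without siMYCN replicate 1. With the replicate number as a block the calls were 5895, 5089 and 4689. Beside GPC3 in siHAND2, the block changed 1 call of a member, GPC2 in siHAND2 against siMYCN (adjusted p = 0.00798), and ended none. Values that changed sign were all within the error. GPC1 in siMYCN became -0.022 when rescaled by median ratios and -0.030 when quantile-normalized, and GPC6 in siHAND2 became -0.014 after median-ratio rescaling. Leaving out 1 library gave -0.0029 to 0.063 for GPC1 and -0.12 to 0.086 for GPC3 in siMYCN, -0.069 to 0.051 for GPC1 and -0.0051 to 0.042 for GPC6 in siHAND2, and -0.10 to 0.018 for GPC1 in siHAND2 against siMYCN. Of 76 called values of the other named genes, 59 kept their call throughout, 17 lost it at least once and 0 changed sign. The cause of these shifts was not tested. Depth limits GPC3, GPC4, GPC5 and SDC4.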
